A study of Mus musculus with 4 samples.

Results

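The genes described here encode the nuclear part of the mitochondrial respiratory chain. They were chosen by symbol alone: the Nduf genes of complex I, Sdha to Sdhd of complex II, the Uqcr genes of complex III, the Cox4 to Cox8 genes of complex IV and the Atp5 genes of complex V. The rule found 84 genes among the 27998 in the deposited gene tables, of which 35 belong to complex I, 4 to complex II, 8 to complex III, 19 to complex IV and 15 to complex V. Ndufa4 and its homologue Ndufa4l2 were counted with complex IV, where the Ndufa4 protein resides. The remaining 3 genes, Atp5s, Atp5sl and Cox7a2l, match the symbols but are not counted as subunits of a complex. No UMI of Cox8c was found in any library, and 82 of the 84 genes were detected in all 4 libraries.

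The cells came from mice of strain C57BL/6 that carried Tie2-Cre, a Cre recombinase driven by the endothelial Tie2 promoter, and a Rosa26 tdTomato reporter. The 3 groups were E9.5 embryos, from which the atrioventricular canal was taken (1 library), and E16.5 embryos (1 library) and newborns at P0 (2 libraries), from which the mitral valve was taken. All 3 groups share the driver and the reporter, tissue was pooled from at least 60 embryos per stage, and red cells were sorted. No library has an unsorted control. Tie2-Cre marks endothelial cells and their descendants as well as blood cells, yet 505 of the 1194 kept E9.5 cells were cardiomyocyte-like. No reporter gene was found in the gene tables, so the sort was not checked from the counts. The labels do not say that the P0 libraries came from separate animals, so their spread may be technical.

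Complexes I and II pass electrons from NADH and succinate to ubiquinone, complex III passes them to cytochrome c and complex IV to oxygen. Complexes I, III and IV pump protons, and complex V, the ATP synthase, uses the resulting gradient. Complex II is encoded wholly in the nucleus and is also an enzyme of the citric acid cycle, whereas the other complexes combine nuclear subunits with subunits made inside the mitochondrion. Several complex IV subunits exist as pairs of isoforms, and Cox6a2, Cox7a1 and Cox8b are the forms known from heart and skeletal muscle. The myocardium is among the tissues richest in mitochondria.

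Each deposited value is a count of unique molecular identifiers (UMIs), each of which stands for 1 captured RNA molecule counted at its 3' end, whatever the length of the RNA. The 1206, 452, 291 and 211 deposited cells at E9.5, E16.5 and P0 were reduced to 1194, 311, 282 and 173 by limits on genes and on mitochondrially encoded UMIs and by removal of doublets. The median kept cell had 24621 UMIs in the E9.5 library, 2357 in that of E16.5, and 5159.5 and 4432 in the P0 pair, so E16.5 is the shallowest library. It also held the highest share of cytosolic ribosomal protein UMIs, 3127 per 10000 against 1525 in the E9.5 library and 2314 and 2319 in the P0 libraries. The nuclear RNA Malat1 was at 6.63 UMIs per 10000 in E16.5 cells and 21.1 in E9.5 cells, but at 344 and 334 in the P0 libraries. The part of these differences in the comparisons between stages was not tested. The barcode lists of the P0 libraries shared 4 barcodes, 2 of them among kept cells. Cells were clustered within each library without the respiratory chain genes, and clusters were named "-like" from marker genes. The names rest on these markers and can differ from an annotation by the authors. Levels are UMIs per 10000 UMIs of the class, and their 95% intervals, like those of shares and ratios, cover counting error only.

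Promoters of 66 of the 84 genes were found in RefSeq tables of build GRCm38.p6. Shown here are 7 of these windows, the 150 bases before the start of transcription, 5' to 3' on the strand of the gene, because the ubiquitous and muscle isoforms behaved differently across cells and Uqcr11 had the largest fold between E16.5 and P0 on the interstitial side among the respiratory chain genes that passed the filter on low counts. Capitals mark a match to one of the motifs listed below, and a window without capitals has none in the bases printed.
Atp5g1: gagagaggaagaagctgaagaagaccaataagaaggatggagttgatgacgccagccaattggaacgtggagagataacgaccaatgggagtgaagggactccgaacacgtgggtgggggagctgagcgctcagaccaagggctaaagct
Atp5g2: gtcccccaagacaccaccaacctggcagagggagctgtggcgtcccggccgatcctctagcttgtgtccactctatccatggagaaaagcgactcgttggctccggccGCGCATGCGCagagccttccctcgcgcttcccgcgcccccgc
Atp5g3: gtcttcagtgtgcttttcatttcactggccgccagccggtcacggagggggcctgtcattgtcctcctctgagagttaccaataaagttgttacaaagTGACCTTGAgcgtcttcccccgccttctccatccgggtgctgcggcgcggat
Cox7a1: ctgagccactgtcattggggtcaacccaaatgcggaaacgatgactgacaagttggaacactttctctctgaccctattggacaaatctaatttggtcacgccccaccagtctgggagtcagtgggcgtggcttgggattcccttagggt
Cox7a2: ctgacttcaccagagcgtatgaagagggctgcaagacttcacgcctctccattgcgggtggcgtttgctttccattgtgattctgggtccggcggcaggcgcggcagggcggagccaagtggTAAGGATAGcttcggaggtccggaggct
Cox6a1: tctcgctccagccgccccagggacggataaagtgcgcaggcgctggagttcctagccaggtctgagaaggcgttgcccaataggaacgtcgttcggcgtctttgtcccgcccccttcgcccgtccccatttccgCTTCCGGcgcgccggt
Uqcr11: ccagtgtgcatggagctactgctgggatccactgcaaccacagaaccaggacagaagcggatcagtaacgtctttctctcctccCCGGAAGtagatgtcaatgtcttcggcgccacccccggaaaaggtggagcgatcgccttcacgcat
The windows lie at chr11:96075632-96075781 (minus strand) for Atp5g1, chr15:102671048-102671197 (minus strand) for Atp5g2, chr2:73911327-73911476 (minus strand) for Atp5g3, chr7:30184021-30184170 (plus strand) for Cox7a1, chr9:79759854-79760003 (minus strand) for Cox7a2, chr5:115348959-115349108 (minus strand) for Cox6a1 and chr10:80406822-80406971 (minus strand) for Uqcr11. The motifs were searched on both strands in the 250 bases before each start, and none of the 4 letter strings contains another. The string GCGCATGCG of the factor NRF1, a regulator of respiratory chain genes, was found in 6 of the 66 genes (9.09%) and in 1.64% of all 27025 genes with a window. These 6 were Atp5g2, Atp5k, Atp5l, Cox6a1, Ndufa8 and Ndufa11. It can match both strands at overlapping places, which counted once per gene. The ETS string CCGGAAG, which GABP can bind, was found in 12 genes (18.2%) and in 7.83% of all genes. The string TCAAGGTCA of estrogen-related receptors was found in 1 gene, Atp5g3, where it starts 52 bases before the transcript (1.52%, against 0.422% of all genes). The loose MEF2 string CTANNNNTA, in which 4 bases are free, was found in 10 genes (15.2%) and in 21.4% of all genes. Both Cox7a1 and Cox7a2 held it, Cox7a1 beyond the bases printed. With 4 free bases the string cannot show whether MEF2 sites set the muscle form apart from its partner. Cox6a2 was among the genes without a window. A match is only a run of letters and no binding was measured.

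In the E9.5 atrioventricular canal, cardiomyocyte-like cells gave the largest share of their UMIs to the respiratory chain. The 84 genes summed to 625.6 per 10000 UMIs in 505 cardiomyocyte-like cells, against 338.9 in 88 endothelial-like cells and 248.2 in 243 erythroid-like cells. The mesenchymal and epithelial classes lay between 300.5 in endoderm-like and 364.9 in heart field-like cells. By complex, cardiomyocyte-like cells held 157.1, 14.9, 75.6, 180.2 and 191.8 per 10000 for complexes I to V, and endothelial-like cells held 94.0, 7.75, 39.5, 90.4 and 103.3. Thus each complex had a larger share in the cardiomyocyte-like cells, and complex II was the smallest in both. Globin takes many of the erythroid-like UMIs. Outside cytosolic ribosomal, mitochondrially encoded, Malat1 and globin UMIs, the same sum was 560.2 in erythroid-like, 434.0 in endothelial-like and 753.4 in cardiomyocyte-like cells. On that scale the erythroid-like and endothelial-like classes changed places.

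**Figure D1:**
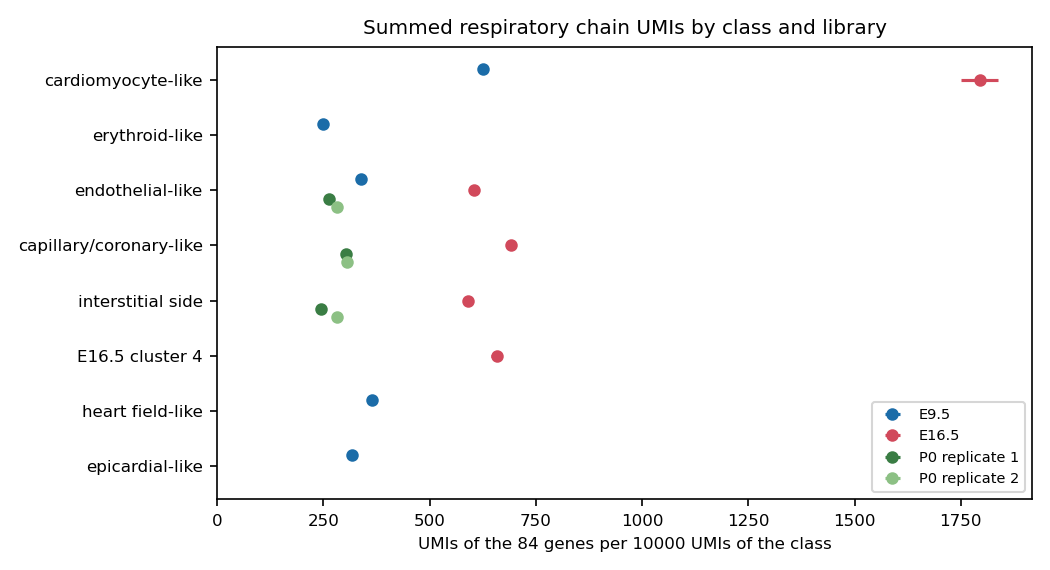
UMIs of the 84 respiratory chain genes per 10000 UMIs of each class (x axis) in each class and library (points coloured by library, bars 95% Poisson intervals, mostly smaller than the points). The E16.5 cardiomyocyte-like point, from 10 cells, stands at 1793.9, and in each of the 3 classes found at both ages the E16.5 point lies above both P0 points.

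At E16.5, 10 cardiomyocyte-like cells held 1793.9 per 10000 (95% Poisson interval 1751 to 1838), the highest share of any class. The other named E16.5 classes were 691.3 in capillary or coronary endothelial-like cells, 604.6 in other endothelial-like cells and 590.8 in interstitial-like cells. E16.5 cluster 3, left without a name, was at 26.0% of the cardiomyocyte-like level. A further group, E16.5 cluster 4, held 657.5 in 47 cells. It is called by number because the smooth muscle and pericyte markers that placed it summed to 13.9 per 10000, below the 73.4 of its interstitial markers, and cell-cycle genes led it. All values at P0 were lower, at 302.8 and 305.9 in capillary or coronary-like cells (replicates 1 and 2), 263.9 and 281.3 in endothelial-like cells, and 244.0 and 281.9 on the interstitial side. The interstitial side joins the interstitial-like clusters with 1 cluster of replicate 1 that shared their markers but was left without a name by the naming rule. Capillary or coronary-like cells had the highest of these 3 values in every mitral valve library.

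Within E9.5, 81 of the 84 genes had at least 30 UMIs in cardiomyocyte-like and endothelial-like cells together. With 1 library there is no replicate and no test, and a gene was counted as higher from a 2-fold ratio. All 81 ratios of cardiomyocyte-like over endothelial-like share were above 1, with a median of 1.87 against 0.941 over all 11071 genes. A ratio of at least 2 was reached by 22 of the 81, where the background was 17.3% of all genes, and 0 of the 81 had a ratio of 0.5 or less, where the background was 14.5%. Medians by complex were 1.65 (I), 1.90 (II), 1.98 (III), 1.95 (IV) and 1.89 (V). Complex I was thus the least raised as a group.

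Single genes stood out within each complex. In complex I, Ndufv3, a subunit of the NADH-binding module, had the largest ratio, with 4.75 per 10000 in cardiomyocyte-like and 1.76 in endothelial-like cells (2.70, interval 2.43 to 3.01). In complex II the membrane anchor Sdhd was highest at 2.42 and the catalytic flavoprotein Sdha lowest at 1.35. In complex III the small subunit Uqcr11 had a ratio of 2.22 and the core protein Uqcrc1 one of 1.26, while Uqcrc2, the other core protein, was at 2.0. In complex V, Atp5o, part of the stalk that joins the parts of the synthase, had a ratio of 2.50. At the low end, Ndufa8 of complex I was at 1.06 (0.976 to 1.16), an interval that includes 1.

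**Figure D2:**
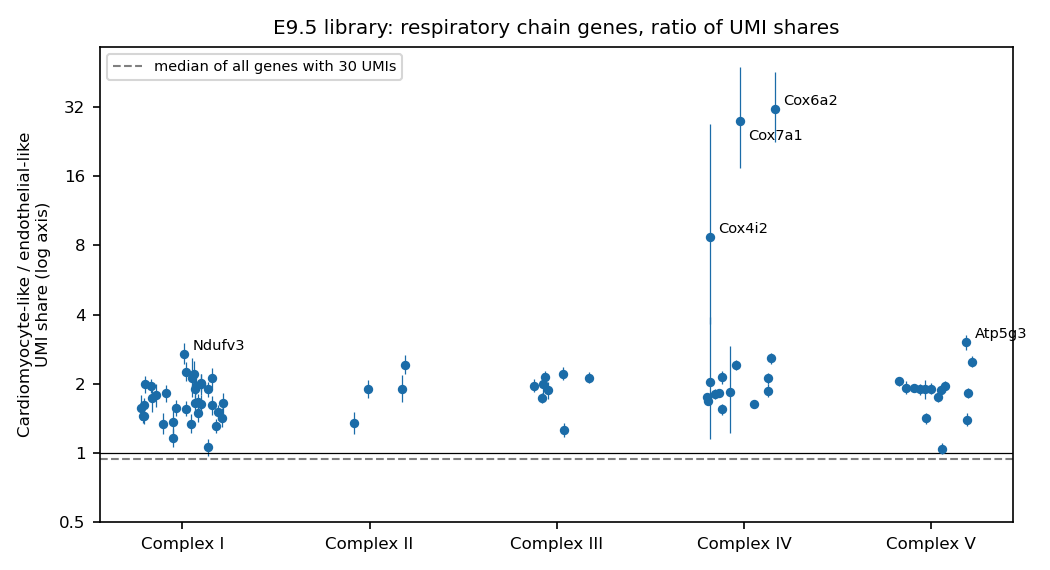
Ratio of UMI share in cardiomyocyte-like over endothelial-like cells of the E9.5 library (log y axis) for each subunit gene with at least 30 UMIs, by complex (x axis); bars are 95% intervals for counting error and the dashed line is the median of all genes. Every point lies above 1, and Cox6a2 (31.4) and Cox7a1 (27.8) lie far above the others.

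The other genes of the pathway did not follow to the same degree. The median ratio was 1.77 over 14 citric acid cycle enzymes and 1.44 over the 13 mitochondrially encoded subunits. It was 1.21 over 48 assembly factors and carriers, 1.20 over 17 regulators of mitochondrial gene expression, 1.01 over 76 mitochondrial ribosomal proteins and 0.691 over 84 cytosolic ribosomal proteins. The nuclear subunits and the citric acid cycle enzymes thus had the highest medians of these lists.

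The c subunit of complex V, which forms its rotating ring, is encoded by 3 genes, Atp5g1, Atp5g2 and Atp5g3, whose mature proteins are the same. At E9.5 Atp5g3 had 10.8 UMIs per 10000 in cardiomyocyte-like and 3.56 in endothelial-like cells, a ratio of 3.03 (2.81 to 3.27). Atp5g1 had a ratio of 2.05 and Atp5g2 one of 1.05 (0.994 to 1.10). Atp5g3 was thus the most raised gene of complex V and Atp5g2 the least. As a share of the 3 genes' UMIs, Atp5g2 made up 23.2% in cardiomyocyte-like cells (95% Clopper-Pearson interval 22.8 to 23.6) and 40.3% in endothelial-like cells (38.8 to 41.8), while Atp5g3 made up 28.9% and 17.3%. In the E16.5 cardiomyocyte-like cells Atp5g2 made up 13.6% of 264 UMIs (9.74 to 18.4), against 31.1% of 460 UMIs in endothelial-like cells of the same library. Among the promoter windows printed above, the strings found were the ERR string in Atp5g3, the NRF1 string in Atp5g2 and none of the 4 in Atp5g1.

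The muscle isoforms of complex IV separated the classes most. Cox6a2 (chromosome 7, 128205435 to 128206387, minus strand, build mm10) had 5.25 UMIs per 10000 in E9.5 cardiomyocyte-like cells and 0.167 in endothelial-like cells, a ratio of 31.4 (22.5 to 45.1). Its ubiquitous partner Cox6a1 had 10.9 and 7.02, a ratio of 1.55. The Cox6a2 share of the pair was 32.5% of 19045 UMIs in cardiomyocyte-like cells (31.9 to 33.2), 2.33% in endothelial-like and 3.61% in erythroid-like cells. In the 10 cardiomyocyte-like cells of E16.5 it was 51.6% of 248 UMIs (45.2 to 58.0). In the other named E16.5 classes it lay between 0.706% and 1.87%. E16.5 cluster 3, left without a name, is not counted here. It had 1.47% of the cardiomyocyte-like level of Cox6a2 and 44.4% of that of Cox6a1. The 2 ages differ in library and in depth, so the larger share at E16.5 has no replicate check. Where cells with at least 1000 genes alone were used, the E16.5 share was 41.9%, and with no limit on mitochondrially encoded UMIs it was 41.4%, both still above the E9.5 value.

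Within the E9.5 cardiomyocyte-like clusters, the Cox6a2 share was highest, at 45.2%, in cluster 10, which is led by canal genes such as Rspo3 and Bmp2. It was 31.8% in cluster 0, which is led by the chamber genes Myl2 and Nppa, and 25.5% at the lowest, in cluster 4. Cox7a1 followed a like order at its top: 21.2% of the pair with Cox7a2 in cluster 10 and between 8.23% (cluster 0) and 14.5% (cluster 3) in the other 5 clusters. Cluster 10 had 187% of the mean cardiomyocyte-like level of Cox6a2 and 179% of that of Cox7a1, beside 97.7% of that of the cardiomyocyte marker sum and 110% of that of Cox6a1. The summed respiratory chain share did not set it apart in the same way, at 696.8 per 10000 in cluster 10 and 701.1 in cluster 0. All these cells come from 1 library, so the clusters give no replicate of the difference.

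Cox7a1 (chromosome 7, 30184144 to 30186078, plus strand, mm10), the muscle form of a small subunit, had 2.26 UMIs per 10000 in E9.5 cardiomyocyte-like and 0.0812 in endothelial-like cells, a ratio of 27.8 (17.3 to 47.8). Its share of the pair with Cox7a2 was 13.1% in E9.5 and 39.5% of 291 UMIs (33.9 to 45.4) in E16.5 cardiomyocyte-like cells. Cox8b, the muscle form of the smallest subunit, made up 0.0482% of the pair with Cox8a in E9.5 and 11.3% of 247 UMIs (7.67 to 16) in E16.5 cardiomyocyte-like cells. The 3 muscle isoforms thus were at different shares at E9.5, with Cox6a2 highest and Cox8b close to 0. The endothelial-like level of Cox6a2 was 3.19% of the cardiomyocyte-like level and that of Cox7a1 3.60%, beside 2.47% for the cardiomyocyte marker sum. Cox6a1 was at 64.5%. In heart field-like cells Cox6a2 and Cox7a1 were at 7.52% and 7.87% of the cardiomyocyte-like level while the marker sum was at 19.9%. Free RNA from cardiomyocytes can give UMIs in other droplets, and its part in these values was not tested.

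**Figure D3:**
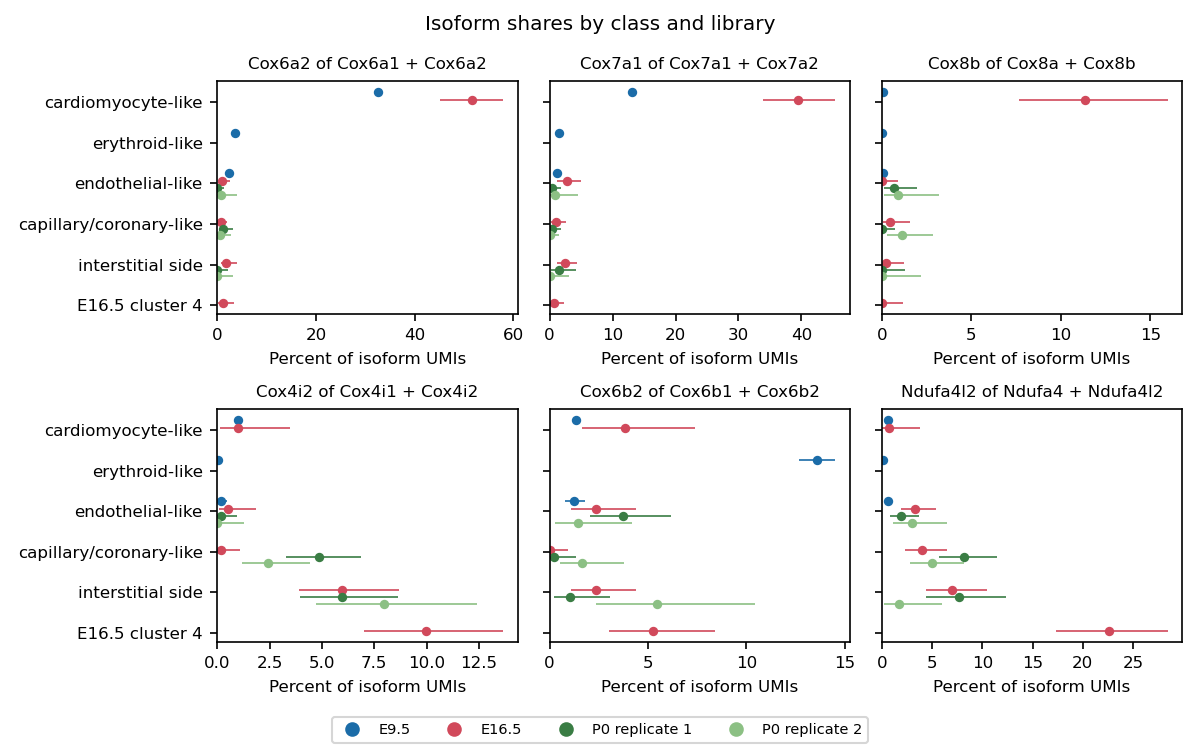
Percent of each isoform pair's UMIs that came from the first-named isoform (x axes, scales differ) by class (y axis) and library (colour); bars are 95% Clopper-Pearson intervals. Cox6a2, Cox7a1 and Cox8b stand out in cardiomyocyte-like cells, Cox6b2 in erythroid-like cells (13.6%), Cox4i2 on the interstitial side and in E16.5 cluster 4, and Ndufa4l2 in E16.5 cluster 4 (22.6%).

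The shares of other isoforms varied between classes outside the myocardium. Cox6b2, best known from testis, made up 13.6% of the pair with Cox6b1 in E9.5 erythroid-like cells (727 of 5356 UMIs, 12.7 to 14.5), against 1.35% in cardiomyocyte-like and 1.23% in endothelial-like cells. The 3 erythroid-like clusters lay between 12.3% and 14.5%. The share was therefore similar in each of them.

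Cox4i2 (chromosome 2, 152754173 to 152765037, plus strand, mm10) encodes the form of subunit 4 known from lung and from oxygen sensing. On the interstitial side of the mitral valve its share of the pair with Cox4i1 was 5.97% in the E16.5 library and 5.98% and 7.94% in the P0 libraries. In endothelial-like cells the shares were 0.517%, 0.169% and 0 of 283 UMIs. A limit of 3 UMIs, which is not a Clopper-Pearson bound, would be 1.06% there. The interstitial and endothelial values did not overlap in the 3 libraries. In the E9.5 library Cox4i2 made up 0.991% of the pair in cardiomyocyte-like cells, where 244 UMIs stood against 5 in endothelial-like cells (ratio of UMI shares 8.65, 3.66 to 26.9). Over these libraries, 68 Cox4i2 UMIs on the interstitial side stood against 3 in endothelial-like cells, a ratio of UMI shares of 27.5 (9.01 to 137). Cox4i2 did not pass the filter on low counts. In the edgeR fit without that filter, with library as a block, its log2 fold was 4.74 ± 0.62 (SE, 3 libraries, adjusted p = 1.74e-12). Capillary or coronary-like cells were at 0.195% at E16.5 and at 4.85% and 2.43% at P0, so this class lay with the endothelial-like cells at E16.5 and between both at P0. That E16.5 value is 1 of 512 UMIs, and the difference in the same class between ages was not called by edgeR without the filter (adjusted p = 0.0608). The highest shares were 9.97% (7 to 13.7) in E16.5 cluster 4 and 9.76% and 8.45% in P0 clusters led by Aspn and Dlk1, which were left without a name.

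Ndufa4l2 is a hypoxia-induced homologue of Ndufa4 that is also known from pericytes. Its share of the pair was 22.6% of 235 UMIs (17.4 to 28.4) in E16.5 cluster 4 and 29.4% and 33.1% in the P0 clusters led by Aspn and Dlk1. It was lower on the interstitial side, at 6.98% in the E16.5 library and 7.69% and 1.69% in the P0 libraries, and in endothelial-like cells, at 3.33%, 1.88% and 3.03%. Capillary or coronary-like cells were at 4.04%, 8.23% and 5.03%, above the interstitial side in both P0 libraries and below it in the E16.5 library. Ndufa4l2 and Cox4i2 thus had their highest mitral valve shares in the same clusters. The P0 clusters led by Aspn and Dlk1 also held cardiomyocyte marker RNA (16 and 18.7 per 10000), and Cox6a2 had 26 of 158 and 8 of 91 UMIs of its pair there. On the interstitial side at P0, Cox6a2 had 0 of 164 and 0 of 114 UMIs, where the same limit of 3 UMIs would be 1.83% and 2.63%.

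Few of the tested respiratory chain genes were called between the 3 mitral valve classes compared by a test. The E16.5 cardiomyocyte-like cells were not part of this fit. In the edgeR fit of 9 sums (3 classes in each of 3 libraries, library as a block), 71 of the 84 genes passed the filter on low counts. A gene was called where its p adjusted over all genes was under 0.05 and every library showed the same direction. Between the interstitial side and endothelial-like cells, 1 gene was called higher and 3 lower, where the background was 9.94% and 13.6% of all genes. These shares of the 71 are below the background. Ndufa4, a subunit of complex IV, had 13.1, 4.69 and 6.36 UMIs per 10000 on the interstitial side (E16.5, P0 replicates 1 and 2) and 22.7, 8.17 and 8.43 in endothelial-like cells. It was lower on the interstitial side in 3 of 3 libraries, and the log2 fold was -0.65 ± 0.14 (SE, adjusted p = 0.0027). Cox5a and Atp5j, of complexes IV and V, were the other lower genes (-0.54 and -0.51, adjusted p = 0.0473 and 0.0143), and Cox6c of complex IV was the higher one (0.44, adjusted p = 0.0470). DESeq2 called 0 higher and 2 lower. Ndufa4 kept its call in 13 of 15 alternatives, Atp5j in 10, Cox6c in 6 and Cox5a in 1. Ndufa4 lost it without P0 replicate 1 (adjusted p = 0.0799) and without the block. Without library as a block edgeR called 0 genes in either direction, and 0 of the 71 had an unadjusted p under 0.05 in that fit.

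Capillary or coronary-like cells held more of 4 genes than the other endothelial-like cells and less of 0, where the background was 7.89% and 9.21%. Both shares of the 71 are below the background. The 4 genes were Ndufv3 (log2 fold 0.60, adjusted p = 0.0224), Cox5b (0.48, adjusted p = 0.0437), Uqcr10 (0.45, adjusted p = 0.0289) and Atp5j (0.41, adjusted p = 0.0473), from complexes I, IV, III and V. Atp5j, a coupling subunit of the synthase, had 17.2, 8.32 and 8.68 UMIs per 10000 in capillary or coronary-like and 13.2, 6.21 and 6.59 in endothelial-like cells, higher in 3 of 3 libraries. At an unadjusted p under 0.05, 10 of the 71 were higher and 0 lower, beside 676 of all 2345 genes in either direction. DESeq2 called 1 higher and 0 lower. Of 14 alternatives, Uqcr10 kept its call in 9, Ndufv3 and Cox5b in 6 each and Atp5j in 4. The median log2 fold over the 71 was 0.19, against 0.02 over all genes tested. With library left out as a block, 0 were called higher. Of the mitochondrially encoded subunits, edgeR called 4 of 12 lower and 0 higher in capillary or coronary-like cells, and DESeq2 called 1 lower.

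From E16.5 to P0 most respiratory chain genes fell as a share of UMIs in all 3 mitral valve classes. On the interstitial side the 84 genes held 590.8 per 10000 at E16.5 and 262.9 ± 26.8 (SD, n = 2) at P0, a ratio of 2.25. The values were 604.6 and 272.6 ± 12.3 in endothelial-like cells (ratio 2.22), and 691.3 and 304.3 ± 2.23 in capillary or coronary-like cells (ratio 2.27). In edgeR fits of E16.5 against P0, 73 of the 84 genes passed the filter in each class. The calls were 48 higher at E16.5 and 0 lower on the interstitial side, where the background was 18.8% and 14.2% of all genes. They were 56 and 0 in endothelial-like cells (background 19.6% and 16.1%), and 52 and 0 in capillary or coronary-like cells (background 24.0% and 24.1%). At an unadjusted p under 0.05, 0, 2 and 0 genes were lower, and DESeq2 called 40, 41 and 44 higher and 0 lower in each class. Of all 2292, 2923 and 2407 genes tested, DESeq2 called 252, 269 and 277 higher and 105, 106 and 80 lower. The median log2 folds of the 73 were 1.42, 1.34 and 1.52, against -0.06, -0.03 and -0.13 over all genes tested.

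These folds depend on the scaling, which was TMM. With library totals as the scale, the median of all genes moved to -0.59, -0.53 and -0.80 and that of the respiratory chain genes to 0.90, 0.84 and 0.85. The calls were then 41 higher and 2 lower (interstitial side), 40 and 4 (endothelial-like), and 37 and 4 (capillary or coronary-like). Over all 2292, 2923 and 2407 genes tested they were 323 and 840, 341 and 921, and 247 and 926. On that scale Ndufa10 was lower in each class, Uqcrc2 on the interstitial side and in endothelial-like cells, Uqcrfs1 and Cox7a2l in both endothelial classes, and Atp5b in capillary or coronary-like cells. With a single E16.5 library and 1 residual degree of freedom, the spread is that of the P0 pair, shared over genes, and E16.5 is assumed to vary like it. The 11 genes not tested on the interstitial side were Cox6a2, Cox6b2, Cox7a1, Cox7b2, Cox8b, Cox8c, Ndufa4l2, Ndufs1, Sdhc, Atp5s and Atp5sl.

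Complex III had the largest ratio of sums in each class (2.88, 2.78 and 2.81 on the interstitial side, in endothelial-like and in capillary or coronary-like cells) and complex II the smallest (0.896, 1.25 and 1.03). Complexes I, IV and V lay between, at 2.31, 2.33 and 1.99 on the interstitial side. Uqcr11, a small subunit of complex III, had 22.2 UMIs per 10000 on the interstitial side at E16.5, and 3.73 and 5.26 at P0. It had 24.6, 5.20 and 6.01 in endothelial-like cells and 23.4, 5.75 and 5.18 in capillary or coronary-like cells. In each class E16.5 lay well above both P0 libraries, and the log2 folds were 2.78 ± 0.24, 2.57 ± 0.20 and 2.64 ± 0.26 (SE), all called by edgeR. Uqcr10 and Uqcrq, other small subunits of complex III, were at 2.49, 2.34 and 2.65 and at 2.28, 2.20 and 2.15. Uqcrc2, a core protein of the same complex, was not called in any class (-1.24, -1.55 and -0.20), and neither was its partner Uqcrc1 (0.42, 0.58 and 0.29). Uqcrh, a further small subunit, had smaller folds that were called (0.78, 0.62 and 0.78).

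In complex I, 23, 26 and 26 of 34 genes were called higher at E16.5 in the 3 classes. Ndufb2, a small membrane-arm subunit, had 10.9 UMIs per 10000 on the interstitial side at E16.5 against 2.32 and 2.63 at P0. Its values in endothelial-like cells were 10.6, 2.33 and 2.50, and in capillary or coronary-like cells 13.6, 2.79 and 2.19. The log2 folds of Ndufb2 were 2.59, 2.58 and 2.98, and those of Ndufb4 and Ndufc1, also of the membrane arm, lay between 2.42 and 2.85.

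In complex IV, 10 of 12, 11 of 11 and 11 of 12 tested genes were called higher. Cox6a1 had 14.8 UMIs per 10000 on the interstitial side at E16.5 and 4.27 and 6.25 in the P0 libraries, 18.7, 4.96 and 5.88 in endothelial-like cells, and 22.1, 6.97 and 6.13 in capillary or coronary-like cells (log2 folds 1.97, 2.23 and 2.29). Cox7a2 had log2 folds of 2.16, 1.93 and 1.99. The partners of both, Cox6a2 and Cox7a1, were under the filter. Cox6a2 had 0.281 UMIs per 10000 on the interstitial side at E16.5, which is 6 UMIs, and 0 in both P0 libraries, so no fold is given. Without the filter its edgeR adjusted p was 0.00896 there and 0.0787 in endothelial-like cells. Cox7a1 was called higher at E16.5 in that fit on the interstitial side (10 UMIs at E16.5, 3 and 0 at P0, adjusted p = 0.00255) and in endothelial-like cells (adjusted p = 0.00272). Cardiomyocyte marker sums on the interstitial side were 5.30 per 10000 in the E16.5 library and 1.09 and 0.77 in the P0 libraries, and their part in these results was not tested.

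In complex V, 10, 13 and 10 of 15 genes were called higher. Atp5k, the e subunit at the dimer interface, had 17.8 UMIs per 10000 on the interstitial side at E16.5 against 4.27 and 5.87 at P0, 15.9 against 4.86 and 5.22 in endothelial-like cells, and 23.1 against 5.03 and 5.44 in capillary or coronary-like cells. Its log2 folds were 2.29, 2.09 and 2.69. Atp5b, the catalytic beta subunit, was not called, with 2.91 against 4.35 and 3.62, 3.08 against 3.75 and 4.35, and 3.04 against 6.40 and 4.45. As shares of UMIs, E16.5 thus lay above both P0 libraries for Atp5k and below both for Atp5b in each class. In complex II, edgeR called 0 of 3, 1 of 4 and 0 of 3 genes, with 0, 2 and 1 at an unadjusted p under 0.05, and DESeq2 called 0 in each class. The 1 called gene was Sdha in endothelial-like cells (1.03 per 10000 against 0.488 and 0.571, log2 fold 1.42 ± 0.47, adjusted p = 0.0101).

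**Figure D4:**
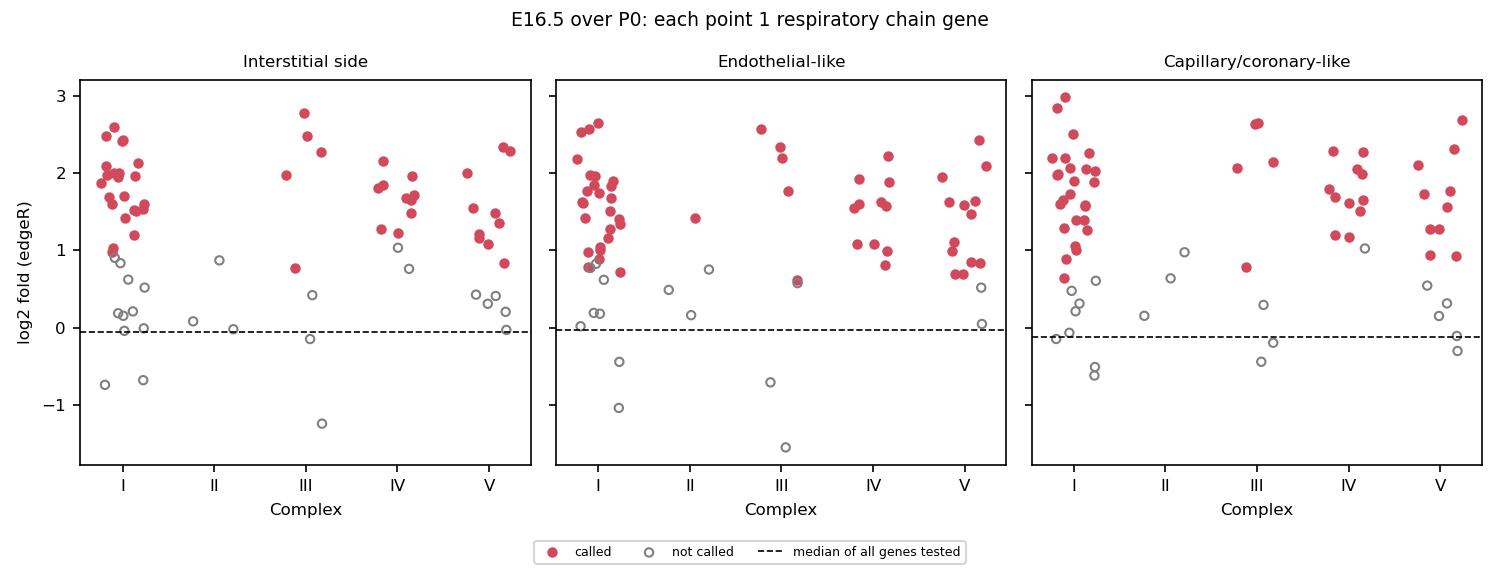
edgeR log2 fold of E16.5 over P0 (y axis) for each tested subunit gene by complex (x axis) in 3 mitral valve classes (panels); filled points were called, open points were not, and the dashed line is the median of all genes tested. Most points of complexes I, III, IV and V lie above 0, and 1 of the complex II points is filled.

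Transcript length moved with the folds. Over the 73 genes the Spearman correlation of length and log2 fold was -0.58 on the interstitial side, -0.50 in endothelial-like and -0.50 in capillary or coronary-like cells (Pearson -0.43, -0.35 and -0.38), given as a description over genes that share the same libraries. Over all tested genes in the shortest 25% of transcripts the median log2 fold was 0.64, 0.57 and 0.66, and in the longest 25% -0.47, -0.58 and -0.67. The median of the respiratory chain genes, whose median transcript is about 607 nt on the interstitial side, was above that of the shortest 25% in each class. The part of length in the folds was not tested.

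The same comparison gave these counts for the other genes of the pathway. On the interstitial side, in endothelial-like and in capillary or coronary-like cells, 10 of 13, 9 of 14 and 10 of 12 assembly factors and carriers were higher at E16.5 with edgeR, and 0 lower (7, 3 and 5 higher with DESeq2). Of the mitochondrially encoded subunits, 7, 7 and 9 of 12 were higher and 1 lower in each class (6, 5 and 7 higher and 0 lower with DESeq2). Of the citric acid cycle enzymes, 0 of 6, 1 of 10 and 0 of 5 were higher (0, 3 and 0 at an unadjusted p under 0.05, and 0 in each class by DESeq2). Of the mitochondrial ribosomal proteins, 18 of 42, 25 of 54 and 25 of 44 were higher with edgeR. DESeq2 called 7, 9 and 6 of these higher, and edgeR with library totals 13, 16 and 9. Of the cytosolic ribosomal proteins, edgeR called 52 of 83, 52 of 84 and 52 of 83 higher, with 13, 14 and 14 lower. The citric acid cycle enzymes, like complex II, had at most 1 gene called in a class. Of all genes tested, 18.8%, 19.6% and 24.0% were called higher at E16.5 in these classes, and 14.2%, 16.1% and 24.1% lower. With 10 or fewer genes tested, these counts do not set either list apart from that background.

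The fall from E16.5 to P0 was compared between classes by an interaction term in the edgeR fit of the 9 sums, a test added after the data were seen. It called 0 of 71 respiratory chain genes between the interstitial side and endothelial-like cells (background 0.384%), with 0 at an unadjusted p under 0.05. Between capillary or coronary-like and endothelial-like cells it called 0 of 71 (background 0%), with 3 at an unadjusted p under 0.05. The median difference of log2 folds was 0.04 and 0.15, against -0.03 and -0.02 over all genes. A difference between classes was not detected at this depth, which does not show that the classes changed alike.

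Between E9.5 and P0 the same genes in endothelial-like cells did not move 1 way. The sum was 338.9 per 10000 at E9.5, in cells of the atrioventricular canal, against 272.6 ± 12.3 (SD, n = 2) at P0, a ratio of 1.24. By complex the ratio was 2.44 for complex II, 1.46 for V, 1.34 for III, 1.15 for I and 1.10 for IV. Of the 73 genes tested, edgeR called 26 higher at E9.5 and 9 lower, where the background was 30.1% and 30.7% of all genes, so the higher share was near the background and the lower share under it. DESeq2 called 7 higher and 4 lower, and edgeR with library totals 35 and 7. Of all 2923 genes tested, DESeq2 called 213 and 374, and edgeR with library totals 1036 and 782. With library totals the higher share of the 73 was above that of all genes. The median log2 fold was 0.25, against -0.01 over all genes tested. E9.5 differs from P0 in tissue and age, and its single library also differs in depth and in Malat1 and cytosolic ribosomal shares. These differences cannot be told apart.

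Atp5b, not called between E16.5 and P0, was the most raised of the 73 tested genes at E9.5, with 14.7 UMIs per 10000 against 3.75 and 4.35 at P0 (log2 fold 1.75 ± 0.19, SE, adjusted p = 6.84e-18). The core proteins Uqcrc2 and Uqcrc1 followed in complex III (1.61 and 1.5). With edgeR all 4 complex II genes were called higher at E9.5, and with DESeq2 0 were: Sdha (1.69 against 0.488 and 0.571, log2 fold 1.58), Sdhd (1.51), Sdhc (1.34) and Sdhb (0.69). In complex I, Ndufa9 (1.48) and Ndufs4 (1.05) were among the 10 higher genes, and Cox5a (1.05) was the 1 higher gene of complex IV.

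The 9 lower genes came from complexes I, III, IV and V and from the genes outside the complexes. Atp5k had 2.34 UMIs per 10000 at E9.5 against 4.86 and 5.22 at P0 (log2 fold -1.23 ± 0.21, SE), and Atp5e, the epsilon subunit, had a log2 fold of -1.0. Ndufa1, Ndufa3, Ndufa6 and Ndufa2 were lower in complex I (-1.11, -0.90, -0.84 and -0.46), Cox6c in complex IV (-0.54) and Uqcr11 in complex III (-0.43, adjusted p = 0.0497). Cox7a2l, an assembly factor of supercomplexes, was the other lower gene (-0.72). Both comparisons use the P0 libraries as their controls, so values stand side by side and no overlap is computed.

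**Figure D5:**
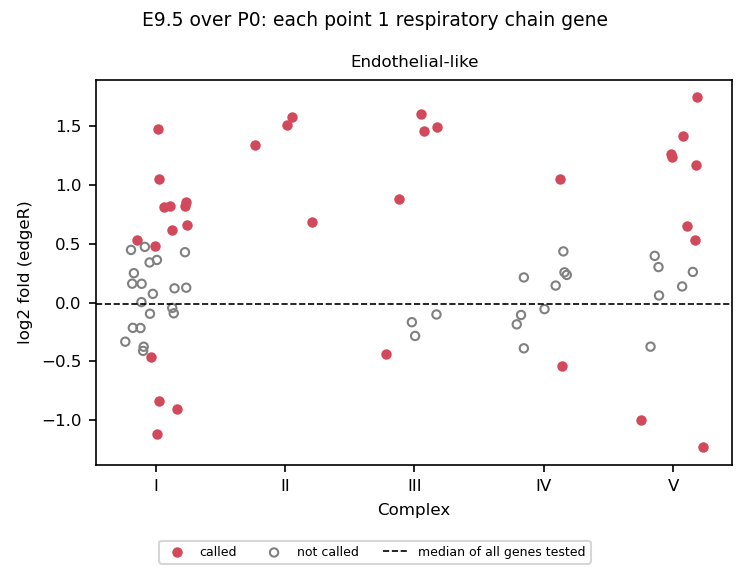
edgeR log2 fold of E9.5 over P0 in endothelial-like cells (y axis) for each tested subunit gene by complex (x axis); filled points were called, open points were not, and the dashed line is the median of all genes tested. All 4 complex II points are filled and above 0, while complexes I, III, IV and V hold filled points on both sides.

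The same E9.5 comparison gave these counts for other lists. Of all 2923 genes tested, edgeR called 30.1% higher and 30.7% lower, and DESeq2 called 213 higher and 374 lower. Of the citric acid cycle enzymes, 8 of 10 were called higher at E9.5 and 0 lower with edgeR (median log2 fold 1.35), and 1 higher and 0 lower with DESeq2. Of the mitochondrial ribosomal proteins, edgeR called 30 of 54 higher and 1 lower, and DESeq2 3 higher and 0 lower. Of the mitochondrially encoded subunits, 0 of 12 were higher and 6 lower, with sums of 246.4 per 10000 at E9.5 and 382.5 ± 20.7 (SD, n = 2) at P0. With edgeR, 6 of these 12 were under 0.05 before adjustment. The DESeq2 calls were 0 higher and 6 lower. Other lists were mixed: edgeR called 5 of 14 assembly factors and carriers higher and 4 lower. Of 84 cytosolic ribosomal proteins, 14 were higher and 34 lower, and of 4 regulators of mitochondrial gene expression, 1 and 2.

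Some genes are less certain because of shared or overlapping sequence. For 24 of the 84 genes part of the last bases of the transcript also occurs in another gene, and for Ndufs3, Atp5l, Atp5h and Cox7c this holds for over 50% of the 57-base stretches. For 26 genes an exon overlaps another gene's exon on the opposite strand, and for 5 genes on the same strand. The counting strand is not given in the sources used here, so reads of the opposite-strand pairs may not be told apart.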

How the data were processed

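Droplet 3' libraries of sorted cells were read on a NextSeq 500. Per the labels and the submitters' processing notes, the authors made the deposited UMI counts per gene and cell with Cell Ranger 2.1.1 on build mm10, and the values are raw counts with no normalization. The deposited gene tables, text of other kind, name the genes. In the list of P0 replicate 1, 15 symbols had become dates, none of a respiratory chain gene, and symbols were taken by identifier.

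Cells with at least 500 genes, at most 10% mitochondrially encoded UMIs and no doublet call by scrublet were kept. Each library was clustered alone (scanpy 1.11.5, 2000 variable genes, 20 components, 15 neighbours, Leiden resolution 1.0) without respiratory chain and mitochondrially encoded genes. A cluster was named where at least 3 markers of 1 list were at least 2-fold higher than in the other cells. Counts were summed per library and class (at least 20 cells for a test) and tested with edgeR 4.0.16 (R 4.3.3), TMM scaling and the quasi-likelihood test on genes whose mean CPM reached that of 10 counts in the smallest sum, with Benjamini-Hochberg adjustment over all genes tested. Stage fits had 1 residual degree of freedom, and class fits used library as a block. A called gene has an adjusted p under 0.05 and the same direction in every library. E9.5 classes and isoform shares were described without a test. Scripts were tested on simulated data. Alternatives were DESeq2 1.42.0, library totals, other filters and clusterings, left-out libraries and no block.

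The genes and lists were chosen with earlier results of these data known. Named genes are the isoform pairs, up to 3 called genes per complex, direction and comparison, and up to 3 with the largest E9.5 ratio per complex. Genes with values outside these, such as Atp5b, Sdhb, Sdhd, Uqcrc1 and Uqcrc2 at E16.5, and Ndufa8 and Ndufa2, were chosen after their values were seen. A planned test of pericyte or smooth muscle-like against interstitial-like cells was not run, because that class was named in E16.5 alone. Promoter sequences come from RefSeq (GRCm38.p6), and gene positions from GENCODE (mm10). Results on 1 gene of the set are not reported here.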

Additional observations from a re-analysis of the deposited data

Results flagged for a closer look

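The E16.5 cells with over 10% mitochondrially encoded UMIs, left out of the main comparisons, held a signal of the respiratory chain genes. Of 452 deposited E16.5 cells, 105 had under 500 genes, 65 were over this limit, 6 were doublets and 311 were kept. The limits thus overlapped, and part of the 65 cells would also have been left out by another limit. These 65 cells had 101903 UMIs. The 84 genes summed to 921 per 10000 UMIs in them (95% Poisson interval 903 to 940), above the 672 of the kept E16.5 cells. Cox6a2 made up 26.1% of the Cox6a1 and Cox6a2 UMIs (94 of 360, Clopper-Pearson interval 21.6 to 31.0), and cardiomyocyte markers summed to 228 per 10000. Over the same limit were 7 cells at E9.5 and 6 and 8 in the P0 libraries. Their sums were 459 per 10000 at E9.5, and 201 and 205 at P0. Cox6a2 had 20 of 106 UMIs of the pair at E9.5, and 0 of 5 and 1 of 21 at P0. Cardiomyocyte markers summed to 506 per 10000 at E9.5, and 0 and 1.92 at P0. The 94 Cox6a2 UMIs at E16.5 lie above the limit of 3 UMIs used here for a count of 0. The E16.5 cells over the limit on mitochondrially encoded UMIs thus included cells with cardiomyocyte RNA. No group held 4 or more samples, so no search for outlying samples was possible.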

How the results depend on the processing

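The main limits are 1 library each at E9.5 and E16.5, a P0 pair that may be technical, and 10 cardiomyocyte-like cells at E16.5. Genes such as Cox6a2, Cox8b and Ndufs1 did not pass the filter on low counts on the interstitial side and were not tested between stages there. Stage folds without either P0 replicate leave no residual degrees of freedom and give no test. The called genes kept their sign there in 48 of 48, 56 of 56, 52 of 52 and 35 of 35 cases (the classes in the order used for the stages, then E9.5). For single named genes, 3340 alternative values of 254 results were computed, of which 3093 kept the direction and side of the threshold, 158 lost the threshold, 28 reached it, 61 had no test and moved by more than 1 SE, and 0 reversed. Stage fits without a P0 replicate are part of this tally, and there a called gene could hardly reverse. The cause of the changes listed here was not tested.

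For E16.5 against P0, genes called lower, 0 in the main setting, were 2, 4 and 4 with library totals and 1, 1 and 1 with cells of at least 1000 genes, in interstitial, endothelial-like and capillary or coronary-like cells. For E9.5 against P0, DESeq2 called 7 higher and 4 lower, and 5 were lower with no filter. Between the interstitial side and endothelial-like cells, the 1 higher gene became 2 with no filter or with a filter reached in 1 sum. It became 0 with DESeq2, with ribosomal, mitochondrially encoded, Malat1 and globin genes left out, with cells of at least 1000 genes, with clustering that used the respiratory chain genes, with Leiden resolution 0.5, without library as a block and with named clusters only. The 3 lower genes became 5 with library totals, 1 with no filter and 0 without the block. Between capillary or coronary-like and endothelial-like cells, the 4 higher genes became 1 with DESeq2, 2 with the broad classes left out, 0 with cells of at least 1000 genes, 1 with clustering that used the respiratory chain genes, 2 with Leiden resolution 0.5 and 0 without the block. Leaving out 1 library in turn gave 0 to 1 higher and 0 to 2 lower genes in the first of these contrasts and 0 to 1 higher in the second. Each of these 3 counts thus moved under several alternatives. The replicate numbers of the labels exist at P0 alone, so library was the only block.

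The sums per 10000 changed as follows. Outside the broad RNA classes they were 753.4 (cardiomyocyte-like), 434.0 (endothelial-like) and 560.2 (erythroid-like) at E9.5, 2411.0, 931.5, 945.6 and 1094.8 at E16.5 (cardiomyocyte-like, endothelial-like, interstitial-like, capillary or coronary-like) and 399.2, 382.9 and 422.4 at P0 (the last 3 classes). With no limit on mitochondrially encoded UMIs they were 628.3 in E9.5 cardiomyocyte-like, 1537.7 in E16.5 cardiomyocyte-like, 568.5 in E16.5 interstitial-like and 298.5 in P0 capillary or coronary-like cells. With cells of at least 1000 genes the E16.5 sums were 1326.8, 620.6, 606.0 and 676.8 in the same order of classes as above. With clustering that used the respiratory chain genes they were 624.1 in E9.5 cardiomyocyte-like, 573.6 in E16.5 interstitial-like and 618.5 in E16.5 endothelial-like cells, and with Leiden resolution 0.5 they were 618.2 in E16.5 endothelial-like and 301.4 in P0 capillary or coronary-like cells. The E16.5 cardiomyocyte-like share of Cox6a2 was 41.9% with cells of at least 1000 genes and 41.4% with no mitochondrial limit, and that of Cox7a1 was 32% with the latter. In the class of E16.5 cluster 4, clustering with the respiratory chain genes left 11 cells, with 62.0% Ndufa4l2 and 19.9% Cox4i2. Both genes could shape that clustering, so these shares are not independent of how the cells were grouped.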
